A study of Mus musculus with 22 samples.

Results

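The TNF superfamily was followed here as 17 ligands and 20 receptors, 37 of the 41388 genes in the count files. They were chosen by gene symbol and not by a cutoff on measured values, though earlier results of these data were known. All 37 were found, and 32 of them passed the filter of more than 1 CPM (read counts scaled to a common library size) in 2 or more libraries. RNA had been sequenced from stromal cells of tumors that were sorted by the Cre reporter TdTomato (TdTOSX) and by CD45, the pan-leukocyte surface protein. This gave 4 populations, namely TdTOSX single positive (CD45-), double positive (TdTOSX and CD45), CD45 single positive (no TdTOSX) and double negative cells. The 22 libraries came from wild type (Osx-cre;Ai9) and Cdh2-cKO;Ai9 mice. For each genotype there were 2 libraries from TdTOSX single positive cells and 3 from every further population. Both genotypes were C57BL/6 mice at postnatal day 56 that carried the Ai9 reporter and a tumor. The labels name an orthotopic MMTV-BO1 tumor, while the design text and the study's methods name a subcutaneous one. The Cre is driven by the promoter of *Sp7* (Osterix) and is repressed by doxycycline. TdTOSX therefore marks cells that used this promoter at a time without doxycycline, and their descendants. The study states that mice fed doxycycline until weaning served for its later experiments. It does not name the diet again for the sequencing. The labels do not spell out the alleles behind Cdh2-cKO. The labels call the libraries of a group biological replicates, but the mice were fewer than the libraries and the labels do not say which libraries share a mouse, so p-values treat as independent what may in part come from the same animals.

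TNF superfamily ligands are mostly membrane-anchored proteins that act as trimers, and many are cleaved to a soluble form. Their receptors fall into those with an intracellular death domain, which can start apoptosis through FADD and caspase-8 or inflammation through TRADD and RIPK1, and those that bind TRAF adaptors and feed into NF-kappaB. In a tumor stroma, macrophages are a known source of TNF, lymphocytes of lymphotoxins, FasL and CD40L, and fibroblasts carry receptors such as Fn14 and the lymphotoxin beta receptor.

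Library depth was 16594228 to 26784003 reads assigned to genes. *Ptprc*, the gene of CD45, lay between 472 and 1820 normalized CPM in the 12 CD45+ libraries and between 2.45 and 337 in the 10 CD45- libraries, while *Sp7* did not exceed 0.0669 in any library. *Cdh2* was not lower in the libraries labelled Cdh2-cKO. In TdTOSX single positive cells, which express the Cre reporter, it was at 13.1 to 17.2 CPM against 5.19 to 9.13 in the wild type. This higher level in cells with the reporter goes against the label. In double negative cells, which lack the reporter, it was at 12.5 to 18.4 against 4.52 to 7.47 CPM. Counts over a whole gene include exons outside a deleted part, and the reason for the higher levels was not tested. Some libraries stood apart. CD45 single positive replicate 2 of the wild type had a summed level of 7 T cell markers (such as *Cd3e*, *Lck* and *Trac*) of 2830 CPM and of 5 B cell markers of 3470 CPM, against at most 656 and 21.7 in the other CD45+ libraries, and a sum of 7 macrophage markers (such as *Adgre1*, *Csf1r* and *C1qa*) of 3730 against 11600 to 17100. Among the CD45- libraries the macrophage sum ranged from 77.9 to 8730 CPM, highest in wild type double negative replicate 3, and the fibroblast sum of 6 markers from 4220 to 58900. The sum of 5 epithelial markers, meant for tumor cells, ran from 33.8 to 1990 CPM in CD45- and from 132 to 470 in CD45+ libraries. Of these markers *Cdh1* and *Epcam* had mostly higher counts in CD45+ libraries. The part of tumor cells in the levels of the CD45- libraries was not tested. All 7 macrophage markers and all 7 T cell markers had counts in both the CD45+ and the CD45- libraries, and no marker of either list was at 0. In bulk libraries of this kind fewer cells of a type and less RNA per cell cannot be told apart.

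**Figure D1:**
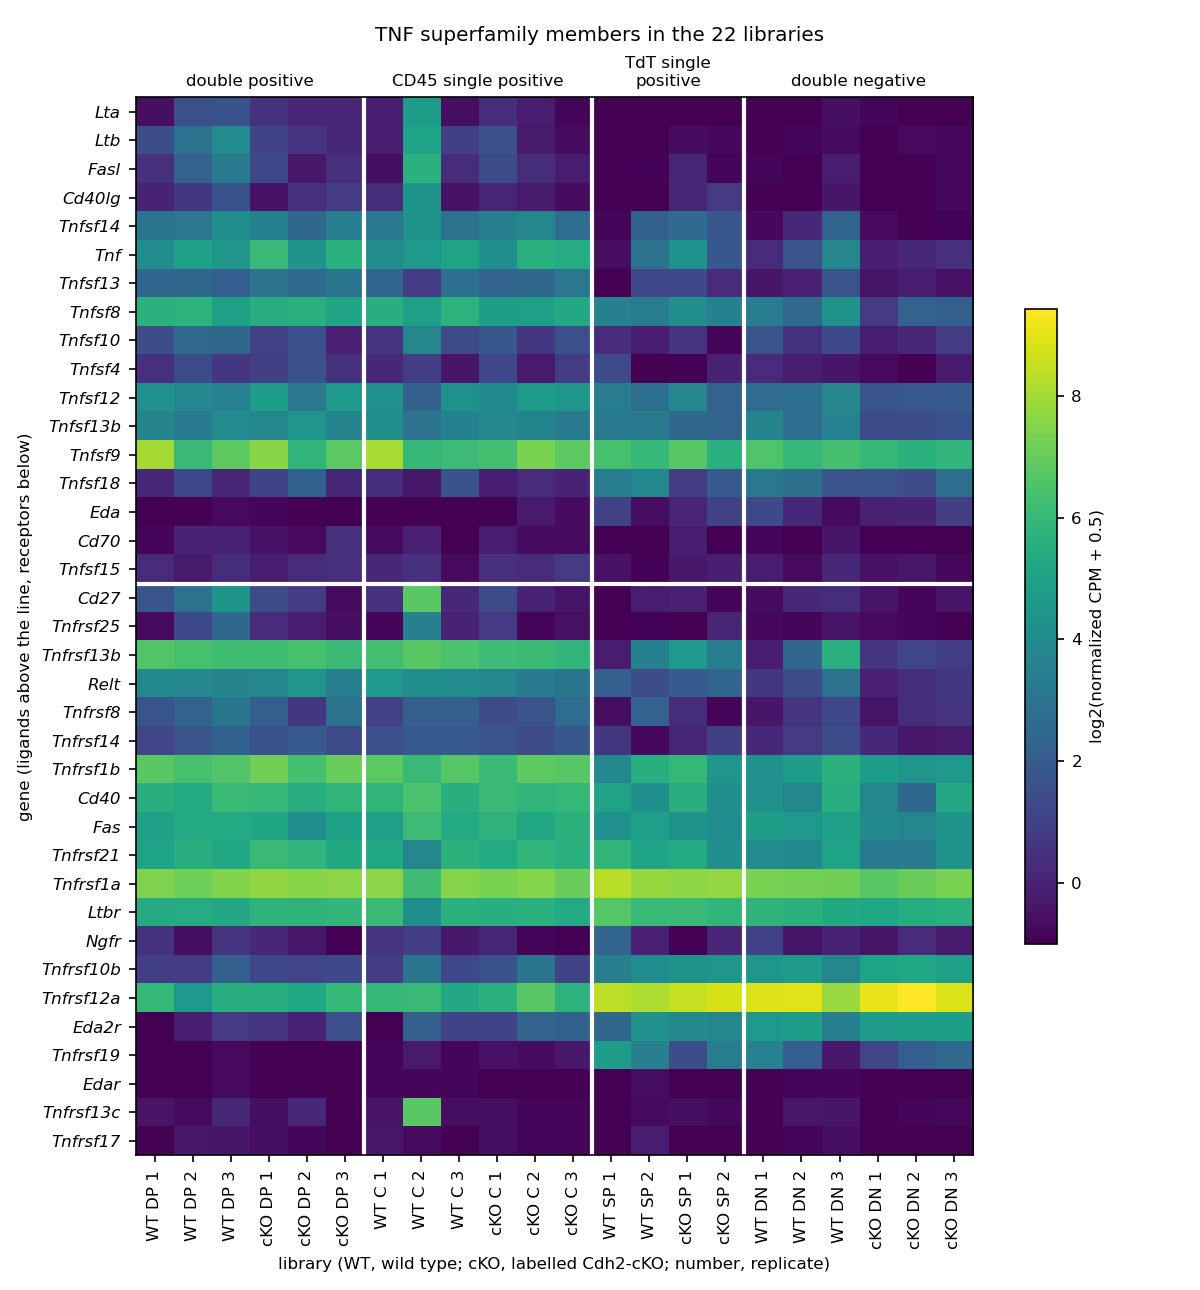
Normalized CPM on a log2 scale with 0.5 added (colour) of the 37 members (rows) in the 22 libraries (columns, by population and genotype). Ligands and receptors are each ordered by their difference between CD45+ and CD45- cells, with members that failed the filter last, and *Tnfrsf12a* is the receptor with the highest level in the CD45- columns.

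To ask which cells could send and which could receive each signal, levels were first compared between genes per kilobase of transcript (RPKM computed on normalized CPM). *Tnfsf9* (4-1BBL, a costimulatory ligand) had the highest median level per length of the 17 ligands in each of the 4 populations, at 90.5 RPKM in double positive, 78.7 RPKM in CD45 single positive, 59.0 RPKM in TdTOSX single positive and 49.6 RPKM in double negative cells. *Tnf* ranked second in both CD45+ populations, at 16.1 and 16.9 RPKM. In both CD45- populations *Tnfsf13b* (BAFF, a survival factor of B cells) was second, at 7.41 and 4.72 RPKM. Among the 20 receptors *Tnfrsf12a* (Fn14, the receptor of TWEAK) led in TdTOSX single positive cells at 361 RPKM and in double negative cells at 493 RPKM. In double positive and CD45 single positive cells *Tnfrsf1a* (TNFR1) led, at 70.3 and 64.9 RPKM. These are medians over libraries of both genotypes, with no test between genes, and *Tnfsf13b* and *Tnfsf12* in CD45 single positive cells were tied at 12.9 RPKM.

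The members were then compared between the 12 CD45+ and the 10 CD45- libraries. Over all libraries together most ligands were higher in CD45+ cells, with the largest fold changes for the lymphotoxins *Lta* and *Ltb* and for *Fasl*. The receptors *Tnfrsf12a*, *Tnfrsf10b*, *Eda2r* and *Tnfrsf19* and the ligands *Eda* and *Tnfsf18* were higher in CD45- cells. *Tnfrsf1a* and *Ltbr* did not pass the test. Of the 32 members tested 23 were higher and 6 lower in CD45+ cells (edgeR's quasi-likelihood test, Benjamini-Hochberg adjusted p of at most 0.05 over 15018 genes). Of all genes tested, 63.7% were called, 32.6% higher and 31.1% lower. The median log2 fold change was 1.66 over the members tested and 0.06 over all genes, and both are descriptions, since a gene expressed in 1 sort alone passes the filter through that sort. *Lta*, *Ltb*, *Fasl*, *Cd27* and *Tnfrsf25* exceeded 1 CPM in CD45+ libraries alone, and *Eda* and *Tnfrsf19* in CD45- libraries alone. The tests of these genes between the sorts, and the counts that include them, are therefore descriptions too. By role, 13 of 15 ligands tested were higher and 2 lower. Of 6 death domain receptors tested 3 were higher and 1 lower, and of 11 other receptors 7 were higher and 3 lower. The ranges of the CD45+ and CD45- libraries did not overlap for 4 members that were higher (*Tnfsf8*, *Tnfrsf1b*, *Tnfrsf13b* and *Relt*) and 3 that were lower (*Tnfrsf10b*, *Tnfrsf12a* and *Eda2r*), against 3.7% and 11% of all genes tested. Without wild type double negative replicate 3 the ranges did not overlap for 6 members that were higher and 4 that were lower, against 8.04% and 13.1%. In the wild type libraries alone 14 members were called higher and 6 lower, against 16.5% and 21.9% of the genes tested there. In the libraries labelled Cdh2-cKO alone 19 and 6 were called, against 26.4% and 31.9%. The ligands *Tnf*, *Tnfsf14*, *Tnfsf12*, *Tnfsf4*, *Tnfsf9*, *Tnfsf13* and *Tnfsf13b* lost their calls in the wild type libraries alone. *Tnfsf10* and *Cd40lg* lost theirs in the libraries labelled Cdh2-cKO alone, where *Lta* had no test.

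**Figure D2:**
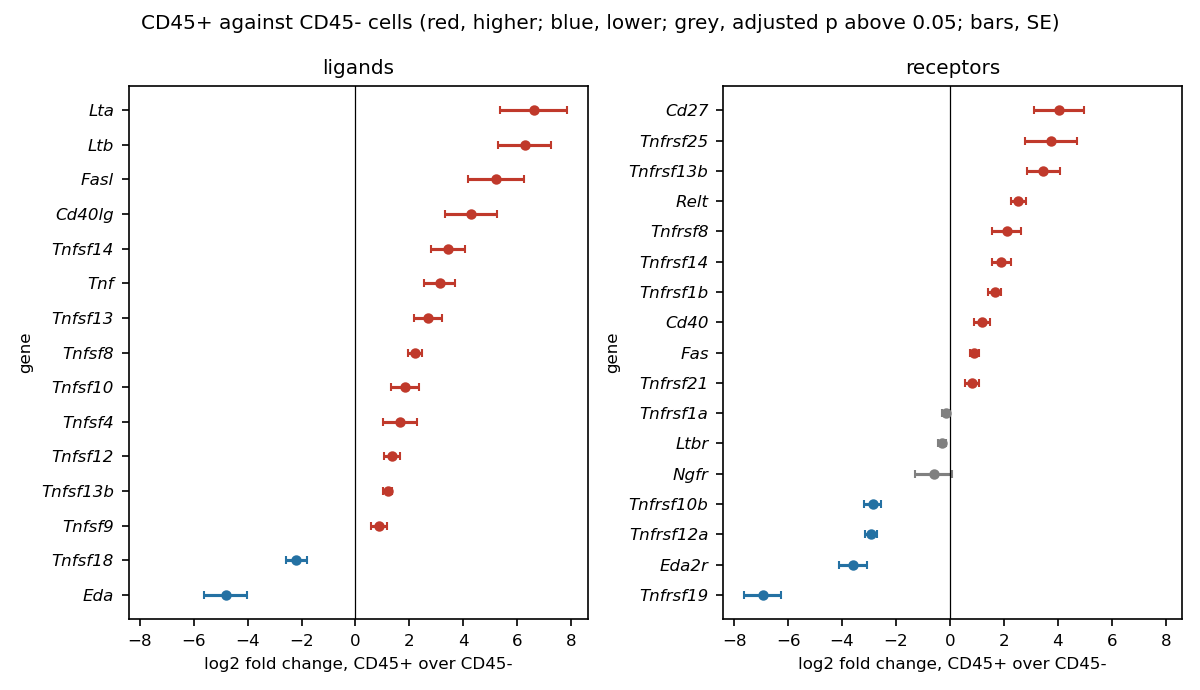
Log2 fold change of CD45+ over CD45- cells (horizontal axis) for the 15 ligands and 17 receptors tested, with the standard error as bars. Red points are called higher and blue points lower, and the 3 grey receptors, *Tnfrsf1a*, *Ltbr* and *Ngfr*, were not called.

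*Tnf*, the founding inflammatory ligand, was found in every CD45+ library, from 16.4 CPM over a median of 26.8 to 64.6 CPM. In the CD45- libraries it ran from 0.153 over a median of 1.8 to 19.6 CPM, so the highest CD45- library, TdTOSX single positive replicate 1 of the libraries labelled Cdh2-cKO, overlapped with the lower CD45+ libraries. The log2 fold change was 3.12 ± 0.56 (SE, edgeR adjusted p = 0.000122), and in the wild type libraries alone it was 2.35 ± 0.89 (adjusted p = 0.0619), so the call was lost there. The CD45- libraries with the most *Tnf*, at 19.6, 13.6 and 7.32 CPM, were also the 3 with the highest macrophage marker sums, of 6490, 8730 and 2430 CPM. Whether macrophages account for *Tnf* in the CD45- libraries was not tested. Without wild type double negative replicate 3 the log2 fold change of *Tnf* was 3.47, and without wild type TdTOSX single positive replicate 2 it was 4.26.

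The TNF receptors differed from each other. *Tnfrsf1b* (TNFR2, which has no death domain and is found mainly on leukocytes) lay between 66.4 and 144 CPM in CD45+ libraries and between 14 and 60.3 CPM in CD45- libraries. The ranges did not overlap, and the log2 fold change was 1.67 ± 0.24 (edgeR adjusted p = 1.42e-05). *Tnfrsf1a*, the death domain receptor found on most cells, ran from 73.6 over a median of 177 to 208 CPM in CD45+ libraries and from 106 over 159 to 316 CPM in CD45- libraries. Its log2 fold change of -0.14 ± 0.14 did not pass the test (edgeR adjusted p = 0.421).

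Further members were higher in CD45+ cells. *Tnfsf8* (CD30L) ranged from 27.1 to 53.6 CPM in CD45+ libraries and from 1.16 to 19.3 in CD45- libraries, with no overlap and a log2 fold change of 2.20 ± 0.25 (edgeR adjusted p = 8.55e-07). Its receptor *Tnfrsf8* (CD30) was low, with medians of 4.01 CPM in CD45+ and 0.782 CPM in CD45- libraries and overlapping ranges of 1.12 to 7.92 and 0.0456 to 4.38 CPM. The log2 fold change of *Tnfrsf8* was 2.10 ± 0.55 (edgeR adjusted p = 0.003), and 3.06 without wild type TdTOSX single positive replicate 2. It was not called in the wild type libraries alone, at 1.38 ± 0.77 (edgeR adjusted p = 0.178). *Tnfrsf13b* (TACI, a receptor of BAFF and APRIL) was between 57.7 and 108 CPM in CD45+ libraries and between 0.357 and 48.3 in CD45- libraries, with a log2 fold change of 3.46 ± 0.60 (edgeR adjusted p = 8.68e-05). The level of 48.3 came from wild type double negative replicate 3, and the next highest CD45- library had 23.9 CPM. The log2 fold change of *Tnfrsf13b* was 4.08 without that library and 4.47 without wild type TdTOSX single positive replicate 2.

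*Tnfsf13b* (BAFF) ran from 7.33 over a median of 12.2 to 21.2 CPM in CD45+ libraries and from 2.21 over 5.65 to 12.1 CPM in CD45- libraries, a log2 fold change of 1.19 ± 0.18 (edgeR adjusted p = 1.62e-05). In the wild type libraries alone it was 0.37 ± 0.29 and was not called (adjusted p = 0.328), while in the libraries labelled Cdh2-cKO it was 1.95 ± 0.20. *Tnfsf13* (APRIL) had medians of 5.08 CPM in CD45+ and 0.424 CPM in CD45- libraries and a log2 fold change of 2.7 ± 0.52, which was 4.49 without wild type TdTOSX single positive replicate 2. In the wild type libraries alone it was 2.06 ± 0.95 (edgeR adjusted p = 0.111). *Tnfsf13* and *Tnfsf12* overlap each other's readthrough gene and an antisense gene, so reads in the shared part could not be assigned by unambiguous counting and both levels are uncertain. *Relt*, an orphan receptor of hematopoietic cells, lay between 7.82 and 24.7 CPM in CD45+ libraries and between 0.473 and 6.94 CPM in CD45- libraries, with a log2 fold change of 2.53 ± 0.28 (edgeR adjusted p = 7.52e-07).

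**Figure D3:**
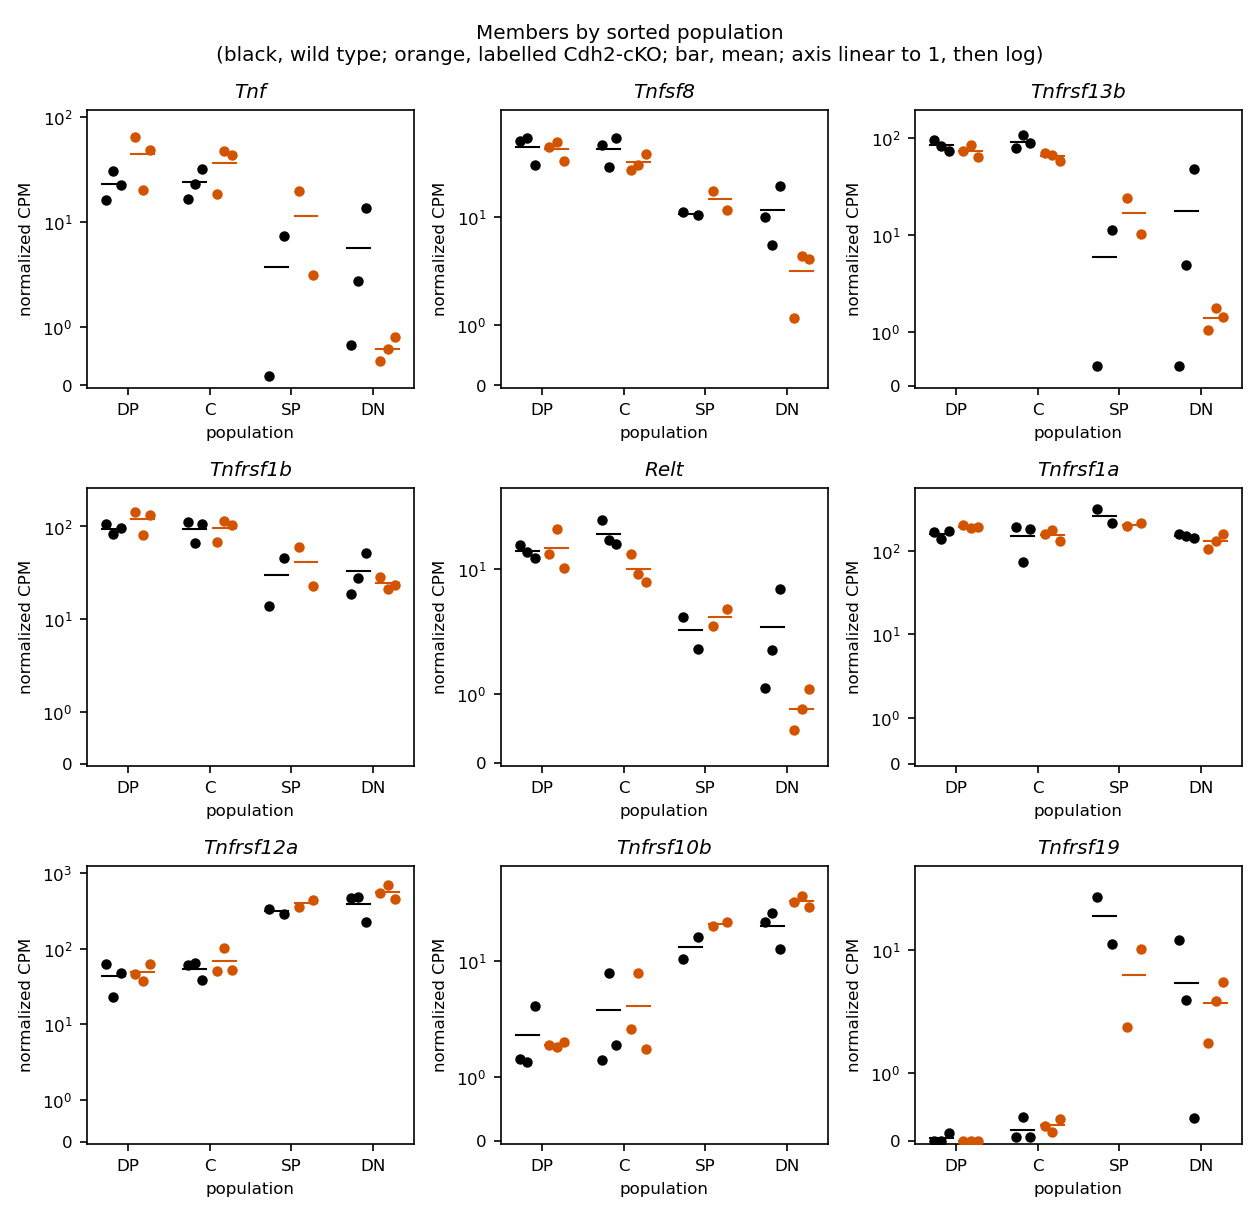
Normalized CPM (vertical axis, linear to 1 and logarithmic above) of 9 members in each library, for double positive (DP), CD45 single positive (C), TdTOSX single positive (SP) and double negative (DN) cells. Bars are the means of wild type (black) and Cdh2-cKO-labelled (orange) libraries, and *Tnf*, *Tnfsf8*, *Tnfrsf13b*, *Tnfrsf1b* and *Relt* were higher in CD45+ cells, *Tnfrsf12a*, *Tnfrsf10b* and *Tnfrsf19* lower.

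*Ltb*, *Tnf* and *Lta* lie side by side in 10913 bases of chromosome 17 (GRCm38, 35194439 to 35205351), within the major histocompatibility complex. *Ltb* is on the plus strand and *Tnf* and *Lta* are on the minus strand. LTA forms a soluble trimer that binds the TNF receptors, and with LTB it forms a membrane heterotrimer that binds the lymphotoxin beta receptor. *Lta* and *Ltb* had the same 3 highest libraries, and *Tnf* did not. The 250 bases before each RefSeq start (GRCm38.p6) are shown, read 5′ to 3′ on the gene's own strand. The RefSeq start of *Ltb* differs from the start in the count files. Its window, which ends at 35194506, therefore runs past 35194439 into the gene as counted, while those of *Tnf* and *Lta* do not. Capitals mark matches, on either strand, to GGG, any 3 bases and TTCC, a common form of the NF-kappaB site, or to TATAAA, the TATA box.
Ltb promoter, chr17:35194257-35194506, plus strand: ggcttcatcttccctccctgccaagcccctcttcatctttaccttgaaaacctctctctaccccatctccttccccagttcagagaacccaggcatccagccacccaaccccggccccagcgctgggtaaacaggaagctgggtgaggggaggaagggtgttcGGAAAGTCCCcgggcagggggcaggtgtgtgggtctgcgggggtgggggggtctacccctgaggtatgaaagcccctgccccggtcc
Tnf promoter, chr17:35202008-35202257, minus strand: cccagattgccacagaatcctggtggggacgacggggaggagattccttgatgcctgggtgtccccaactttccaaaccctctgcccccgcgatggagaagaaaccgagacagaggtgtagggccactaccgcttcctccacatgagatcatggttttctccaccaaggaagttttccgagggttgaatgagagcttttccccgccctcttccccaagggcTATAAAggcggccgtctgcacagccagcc
Lta promoter, chr17:35205352-35205601, minus strand: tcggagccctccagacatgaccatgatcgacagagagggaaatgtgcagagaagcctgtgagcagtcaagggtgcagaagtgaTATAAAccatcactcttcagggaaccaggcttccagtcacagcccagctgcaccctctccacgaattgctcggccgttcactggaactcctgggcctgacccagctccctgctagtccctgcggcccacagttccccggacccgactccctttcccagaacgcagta
The NF-kappaB letters were matched once in the *Ltb* window, beginning at position -87 from the RefSeq start, and not in the windows of *Tnf* and *Lta*. TATAAA was matched in the *Tnf* window at -29 and in the *Lta* window at -167. Over 32851 RefSeq promoters 4.65% of such windows held the NF-kappaB letters and 12.4% TATAAA. Of 30 members with a promoter in the table, 3 held the former (*Eda2r*, *Ltb* and *Tnfrsf25*) and 5 the latter (*Eda2r*, *Lta*, *Tnf*, *Tnfrsf17* and *Tnfsf18*). A match is a description of letters only.

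The lymphotoxins were high in few libraries. *Ltb* reached 32.8 CPM in wild type CD45 single positive replicate 2 and 16 and 7.02 CPM in wild type double positive replicates 3 and 2, against 0.128 to 2.47 CPM in the other 9 CD45+ libraries. In the 10 CD45- libraries it was between 0 and 0.137 CPM, where 3 counts correspond to 0.103 to 0.201 CPM. *Lta* had 26.6 CPM in wild type CD45 single positive replicate 2, 2.59 and 2.46 CPM in wild type double positive replicates 3 and 2, and at most 0.938 CPM elsewhere. Both lay at or under about 3 counts in CD45- cells and passed the filter through CD45+ libraries alone, so their tests are descriptions. The fitted log2 fold change of CD45+ over CD45- cells was 6.28 ± 0.98 for *Ltb* and 6.60 ± 1.23 for *Lta* (edgeR adjusted p = 3.76e-05 and 0.000225), and without wild type CD45 single positive replicate 2 it was 5.38 and 5.34. Without wild type double negative replicate 3 that of *Lta* was 7.34. *Tnf*, between them on the chromosome, had 23.2 CPM in that library, inside the range of the other CD45+ libraries.

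*Fasl*, *Cd27* and *Tnfrsf25* were highest in the same 3 libraries, and *Cd40lg* was highest in 2 of them. FasL kills cells that carry Fas, CD40L licenses antigen-presenting cells, CD27 is a costimulatory receptor of T cells and *Tnfrsf25* encodes the death domain receptor DR3 of T cells. *Fasl* was at 49.8 CPM in wild type CD45 single positive replicate 2, at 9.24 and 4.33 CPM in wild type double positive replicates 3 and 2, and between 0.18 and 2.14 CPM in the other CD45+ libraries. *Cd27* was at 108, 20.6 and 7.08 CPM in these 3 libraries and at 2.79 CPM or below in the rest. *Cd40lg* stood at 20.7 CPM in CD45 single positive replicate 2 and 2.59 CPM in double positive replicate 3, followed by 1.20 CPM in double positive replicate 3 of the libraries labelled Cdh2-cKO. *Tnfrsf25* stood at 11, 5.22 and 1.99 CPM in wild type CD45 single positive replicate 2 and double positive replicates 3 and 2. Among CD45- libraries *Cd40lg* reached 1.14 CPM in TdTOSX single positive replicate 2 labelled Cdh2-cKO, above most CD45+ libraries. The highest CD45- levels were 0.548 CPM of *Fasl*, 0.771 CPM of *Cd27* and 0.592 CPM of *Tnfrsf25*. For all of these genes the ranges of the CD45+ and CD45- libraries overlapped. Across all 37 members 6 (*Lta*, *Ltb*, *Fasl*, *Tnfsf10*, *Cd27* and *Tnfrsf25*) had their 3 highest values in these libraries, which were the 3 with the highest T cell marker sums of 2830, 656 and 294 CPM. Wild type CD45 single positive replicate 2 also had the highest sums of B cell (3470 CPM), NK (688), neutrophil (848) and dendritic cell markers (498). The part of T cells or of any other cell type in these levels was not tested. The fitted log2 fold changes of CD45+ over CD45- cells were 5.22 ± 1.04 for *Fasl*, 4.29 ± 0.96 for *Cd40lg*, 4.03 ± 0.93 for *Cd27* and 3.75 ± 0.98 for *Tnfrsf25*, and the largest edgeR adjusted p was 0.00294. Without wild type CD45 single positive replicate 2 they were 3.94, 3.33, 2.65 and 2.81. Single CD45- libraries moved them too, to 5.87 for *Fasl* without TdTOSX single positive replicate 1 and 5.12 for *Tnfrsf25* without replicate 2 of those labelled Cdh2-cKO, to 5.19 for *Cd40lg* without wild type double negative replicate 3, and to 5.29 for *Cd27* without wild type TdTOSX single positive replicate 2. In the libraries labelled Cdh2-cKO alone *Cd40lg* was not called (1.49 ± 0.72, edgeR adjusted p = 0.0943). By limma's voom test *Tnfrsf25* lost its call (adjusted p = 0.0536). In the 10 wild type libraries without CD45 single positive replicate 2, a set chosen after the data were seen, voom called neither *Fasl* (adjusted p = 0.0768) nor *Cd27* (0.172) nor *Tnfrsf25* (0.264), while edgeR called all 3. *Cd27* overlaps *Vamp1* on the other strand, and it is not stated whether the counting used strand.

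**Figure D4:**
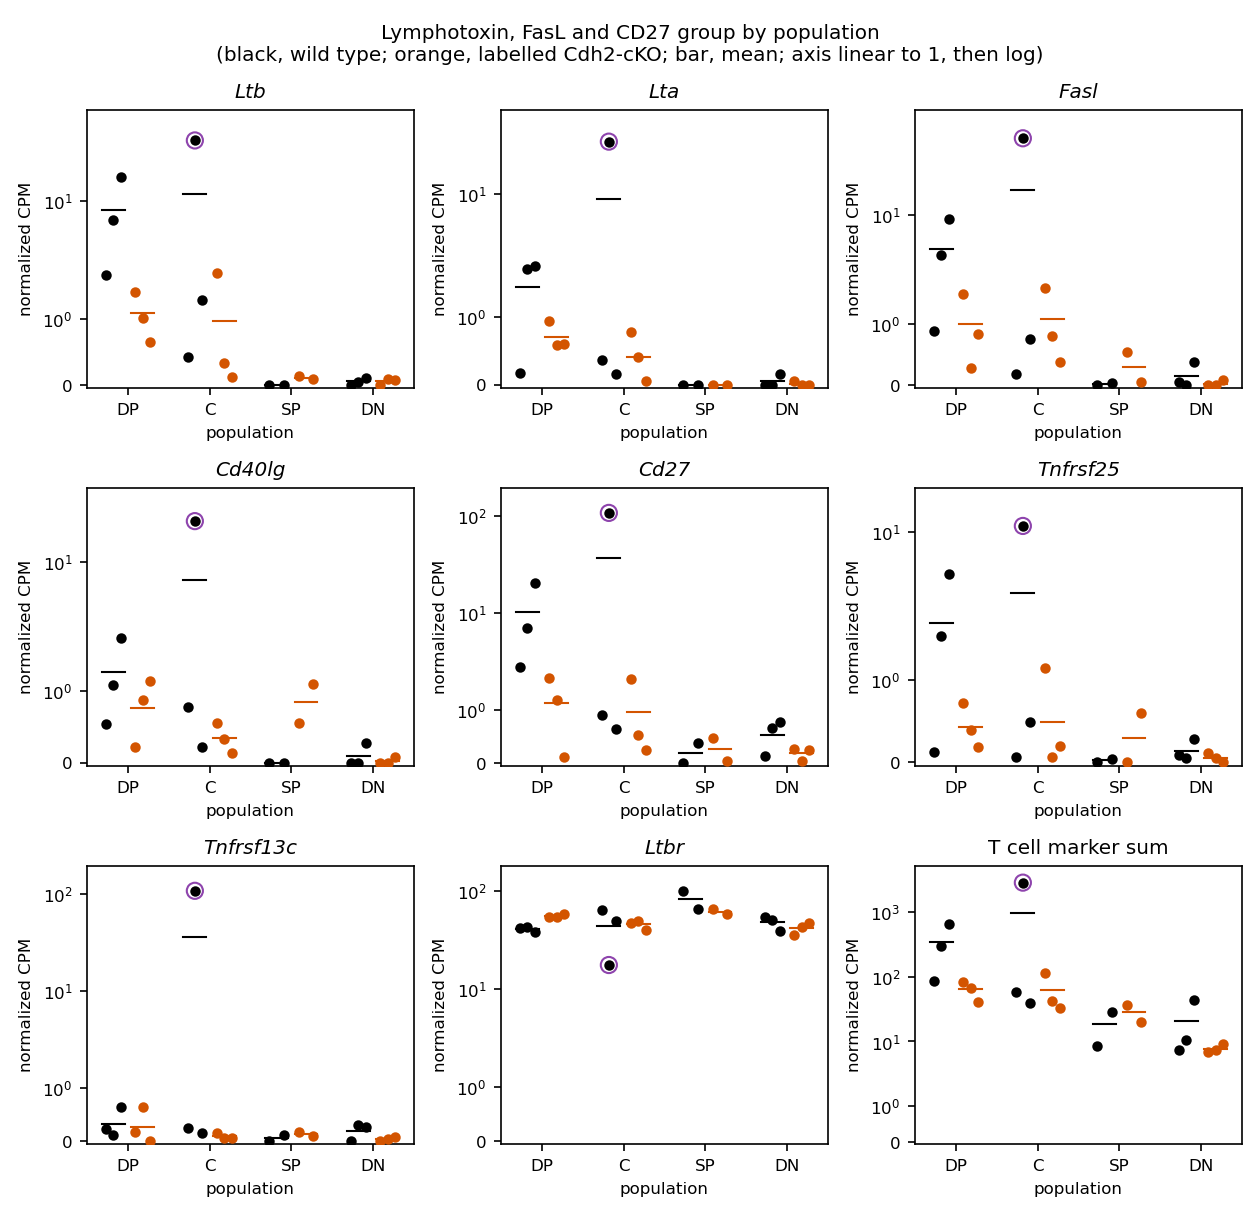
Normalized CPM (vertical axis, linear to 1 and logarithmic above) of 8 members and the sum of 7 T cell markers in each library, by population as in the plot of members by population, with means as bars. The circled library, wild type CD45 single positive replicate 2, had the highest level of 7 of the 8 members and the highest T cell sum, and the lowest level of *Ltbr*.

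Double positive and CD45 single positive cells were compared to ask whether TdTOSX set apart leukocytes by these genes. Of the 32 members tested none was called in either direction (edgeR, smallest adjusted p = 1), with 3 at an unadjusted p under 0.05 (*Fas*, *Tnfrsf19* and *Eda2r*, all lower in double positive cells), against 3.44% of all genes tested at such a p and lower. None was called by voom or DESeq2. Of all genes tested, 0.00666% were called higher in double positive cells. The ranges of all 37 members overlapped, where 0.0533% of genes tested did not overlap and were higher and 0.04% were lower. The absolute log2 fold change was below 0.5 for 22 members. For the lymphoid genes the direction depended on the test and on wild type CD45 single positive replicate 2. *Ltb* had a log2 fold change of -0.13 ± 0.85 with that library and 1.67 ± 0.70 without it. *Cd27* went from -0.78 ± 1.01 to 2.00 ± 0.82, *Fasl* from -0.99 ± 0.99 to 1.59 ± 0.83 and *Lta* from -0.81 ± 1.01 to 1.74 ± 0.80, and for these 4 genes the edgeR adjusted p was 1 both times. In the 10 remaining wild type libraries *Ltb* was 3.17 ± 1.05 and *Cd27* 3.72 ± 1.24 on the log2 scale, and neither was called. In the libraries labelled Cdh2-cKO *Ltb* was 0.19 ± 0.89 and *Cd27* 0.29 ± 1.0. With all 22 libraries kept, voom gave 2.15 ± 0.76 for *Ltb* and 1.71 ± 0.88 for *Cd27*, both uncalled.

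FasL and its receptor were both higher in CD45+ cells, while TRAIL and its receptor had opposite directions. *Fas*, the receptor of FasL, was at a median of 39 CPM in CD45+ libraries, with a range of 16.7 to 70.7, and at a median of 20.3 CPM in CD45- libraries, with a range of 13 to 30.5. It was higher in CD45+ cells by 0.90 ± 0.17 on the log2 scale (edgeR adjusted p = 0.000225). *Tnfsf10* (TRAIL) ran from 0.481 over a median of 2.32 to 13.1 CPM in CD45+ libraries and from 0.0456 over 0.843 to 2.76 CPM in CD45- libraries, a log2 fold change of 1.84 ± 0.51 (edgeR adjusted p = 0.00442). Without TdTOSX single positive replicate 1 of those labelled Cdh2-cKO it was 2.7. In the libraries labelled Cdh2-cKO alone *Tnfsf10* was not called (1.41 ± 0.65, edgeR adjusted p = 0.081). Its receptor *Tnfrsf10b* (DR5) went the other way, from 1.35 over a median of 1.88 to 7.96 CPM in CD45+ libraries and from 10.5 over 21.8 to 37 CPM in CD45- libraries. The ranges of *Tnfrsf10b* did not overlap and the log2 fold change was -2.87 ± 0.33 (edgeR adjusted p = 8.88e-07). *Tnfrsf21* (DR6) was higher in CD45+ cells by 0.82 ± 0.25 (edgeR adjusted p = 0.0082), with ranges of 12.9 to 67.3 and 9.11 to 57.7 CPM that overlapped widely. *Tnfrsf21* was not called in the wild type libraries alone (0.22 ± 0.37, edgeR adjusted p = 0.668).

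*Tnfrsf12a* was the member with the smallest adjusted p. It lay between 23 and 103 CPM (median 51.3) in CD45+ libraries and between 223 and 686 CPM (median 445) in CD45- libraries. The lowest CD45- library, wild type double negative replicate 3, was still above the highest CD45+ library. The highest level, 686 CPM, was in double negative replicate 2 labelled Cdh2-cKO, which had the highest epithelial sum, 1990 CPM. Wild type TdTOSX single positive replicate 1, with the lowest epithelial sum of 33.8 CPM, had 337 CPM. The epithelial markers did not go together. In the library with the highest sum *Krt18* and *Krt8* had 32379 and 8518 counts, *Epcam* 1 and *Cdh1* 58. The part of tumor cells in the level of *Tnfrsf12a* was not tested. The log2 fold change was -2.93 ± 0.21 (edgeR adjusted p = 2.55e-09). Its ligand *Tnfsf12* (TWEAK) was higher in CD45+ cells, from 4.07 over a median of 18.7 to 28.5 CPM against 2.79 over 6.33 to 13.7 CPM in CD45- libraries, with a log2 fold change of 1.34 ± 0.30 (edgeR adjusted p = 0.000742). The genes of TWEAK and Fn14 had opposite directions between the sorts, but in the wild type libraries alone *Tnfsf12* was not called (0.76 ± 0.42, edgeR adjusted p = 0.181).

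*Tnfrsf19* (TROY, a receptor of mesenchymal and neural progenitors) was at 0 to 0.344 CPM in CD45+ libraries, with no count in 5 of 12. In TdTOSX single positive cells it was at 26.7 and 11.2 CPM in the wild type and at 2.36 and 10.1 CPM in the libraries labelled Cdh2-cKO. In double negative cells it was at 12, 3.89 and 0.33 CPM in the wild type and at 1.74, 3.83 and 5.42 CPM in the libraries labelled Cdh2-cKO. The value of 0.33 came from wild type double negative replicate 3, which had the highest macrophage sum of the CD45- libraries, and no other CD45- library was below 1.74 CPM. The fitted log2 fold change of CD45+ over CD45- cells was -6.94 ± 0.69 (edgeR adjusted p = 4.98e-07), and -7.63 without wild type double positive replicate 3.

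The ectodysplasin ligand *Eda*, which shapes skin appendages, was low throughout. It was between 0.11 and 1.93 CPM in CD45- libraries and between 0 and 0.334 CPM in CD45+ libraries, where 8 of 12 had no count, with a fitted log2 fold change of -4.81 ± 0.80 (edgeR adjusted p = 8.36e-05). It was -4.22 without wild type TdTOSX single positive replicate 1 and -5.50 without wild type double positive replicate 3. Its receptor *Eda2r* (XEDAR) was between 5.10 and 28.3 CPM in CD45- libraries and between 0 and 4.48 CPM in CD45+ libraries. The ranges of *Eda2r* did not overlap and the log2 fold change was -3.58 ± 0.51 (edgeR adjusted p = 1.24e-05). *Tnfsf18* (GITRL, a costimulatory ligand of T cells) was also lower in CD45+ cells, with 0.286 to 4.22 CPM against 1.34 to 14 CPM in CD45- libraries and a log2 fold change of -2.19 ± 0.40 (edgeR adjusted p = 0.000121).

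*Ltbr*, which receives the lymphotoxin heterotrimer and LIGHT, ranged from 17.6 over a median of 48.9 to 64.7 CPM in CD45+ libraries and from 36 over 52.8 to 101 CPM in CD45- libraries. Its log2 fold change was -0.29 ± 0.16 (edgeR adjusted p = 0.131). *Ltbr* was called lower in CD45+ cells in 2 other edgeR fits. One left out wild type CD45 single positive replicate 2 and double negative replicate 3 (-0.29, edgeR adjusted p = 0.0148). The other left out wild type CD45 single positive replicate 1 (-0.39, edgeR adjusted p = 0.0345). *Tnfsf14* (LIGHT) was at 5.29 to 19.2 CPM in CD45+ and at 0 to 5.79 CPM in CD45- libraries, a log2 fold change of 3.42 ± 0.63 (edgeR adjusted p = 0.000143). In the wild type libraries alone it was 2.51 (adjusted p = 0.0778), and without wild type TdTOSX single positive replicate 2 of all libraries it was 4.73. *Tnfrsf14* (HVEM, the second receptor of LIGHT) was low, at 1.78 to 4.17 and 0.0775 to 2.09 CPM, with a log2 fold change of 1.91 ± 0.36 (edgeR adjusted p = 0.000176), which was 2.61 without wild type TdTOSX single positive replicate 1. *Cd40*, the receptor of CD40L on antigen-presenting cells, had medians of 57.4 and 18.7 CPM in CD45+ and CD45- libraries, with overlapping ranges and a log2 fold change of 1.19 ± 0.31 (edgeR adjusted p = 0.00266).

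The costimulatory ligands *Tnfsf9* and *Tnfsf4* (OX40L) were called with less margin. *Tnfsf9* ran from 55.9 to 264 CPM in CD45+ and from 48.7 to 105 CPM in CD45- libraries, a log2 fold change of 0.86 ± 0.30 (edgeR adjusted p = 0.0191), and lost its call without TdTOSX single positive replicate 2 of the libraries labelled Cdh2-cKO. *Tnfsf4* did not exceed 2.47 CPM in any library and was higher in CD45+ cells by 1.64 ± 0.64 (edgeR adjusted p = 0.0328). This call was lost in 7 of 22 fits that left out 1 library, and without wild type TdTOSX single positive replicate 1 the value was 3.49. Neither *Tnfsf9* (0.87 ± 0.47, edgeR adjusted p = 0.163) nor *Tnfsf4* (0.54 ± 0.90, adjusted p = 0.667) was called in the wild type libraries alone. *Ngfr*, the low-affinity neurotrophin receptor, was at 4.75 CPM in wild type TdTOSX single positive replicate 1 and at most 1.52 CPM in the other libraries, and did not pass the test (edgeR adjusted p = 0.454).

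The other 5 members failed the filter. *Cd70*, the ligand of CD27, did not exceed 0.842 CPM and had no count in 7 of the 10 CD45- libraries. *Tnfsf15* (TL1A, the ligand of DR3) reached 1.22 CPM in 1 library. *Edar* and *Tnfrsf17* (BCMA, of plasma cells) were at or below 0.155 and 0.426 CPM. *Tnfrsf13c* (BAFF receptor, of B cells) had 108 CPM in wild type CD45 single positive replicate 2, the library with the high B cell marker sum, and at most 0.633 CPM in the other 21 libraries.

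TdTOSX single positive and double negative cells were compared to ask whether TdTOSX marked a distinct CD45- stroma. No member was called in all 22 libraries (edgeR, smallest adjusted p = 0.0691 for *Tnfsf14*), with 7 at an unadjusted p under 0.05, all higher in TdTOSX single positive cells, where 11.1% of all genes tested had such a p and were higher. DESeq2 called 3 (*Tnfsf14*, *Tnfrsf1a* and *Tnfrsf21*) and voom 3 (*Tnfsf8*, *Tnfrsf1a* and *Tnfrsf21*), all higher, against 3.44% and 3.71% of all genes. Of all genes tested, 1.89% were called by edgeR, 1.23% higher and 0.659% lower. Ranges of the 4 TdTOSX single positive and the 6 double negative libraries did not overlap for *Tnfrsf1a* and *Ltbr*, against 2.72% of all genes tested. *Tnfrsf1a* was at 316 and 216 CPM in the wild type and at 199 and 214 CPM in the libraries labelled Cdh2-cKO of TdTOSX single positive cells, and in double negative cells between 106 and 159 CPM. The log2 fold change of *Tnfrsf1a* was 0.73 ± 0.21 (edgeR adjusted p = 0.0792). *Ltbr* was between 58.1 and 101 CPM in TdTOSX single positive cells and between 36 and 54.6 CPM in double negative cells, with a log2 fold change of 0.66 ± 0.24 (edgeR adjusted p = 0.147).

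This count depended on single libraries. Without wild type double negative replicate 3, 6 members were called, all higher in TdTOSX single positive cells, namely *Tnf*, *Tnfsf14*, *Tnfsf8*, *Tnfrsf21*, *Tnfrsf13b* and *Relt*, against 4.43% of the genes tested in that fit. Without wild type CD45 single positive replicate 2, 3 members were called higher, *Tnfrsf1a*, *Tnfrsf21* and *Ltbr*, against 3.08%. Without both libraries 8 were called higher, against 7.55%. In the libraries labelled Cdh2-cKO alone 7 members were called higher, against 7.72%. *Tnfsf14* was at 0.051 and 4.26 CPM in wild type TdTOSX single positive cells and at 5.79 and 2.96 CPM in those labelled Cdh2-cKO. In double negative cells it was at 0.0919, 0.614 and 4.63 CPM in the wild type and at 0.105, 0 and 0.0417 CPM in those labelled Cdh2-cKO. The macrophage sums in the same order were 77.9, 2430, 6490 and 2330 CPM, then 111, 1370 and 8730 CPM, then 227, 320 and 186 CPM. The part of macrophages in these differences was not tested.

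**Figure D5:**
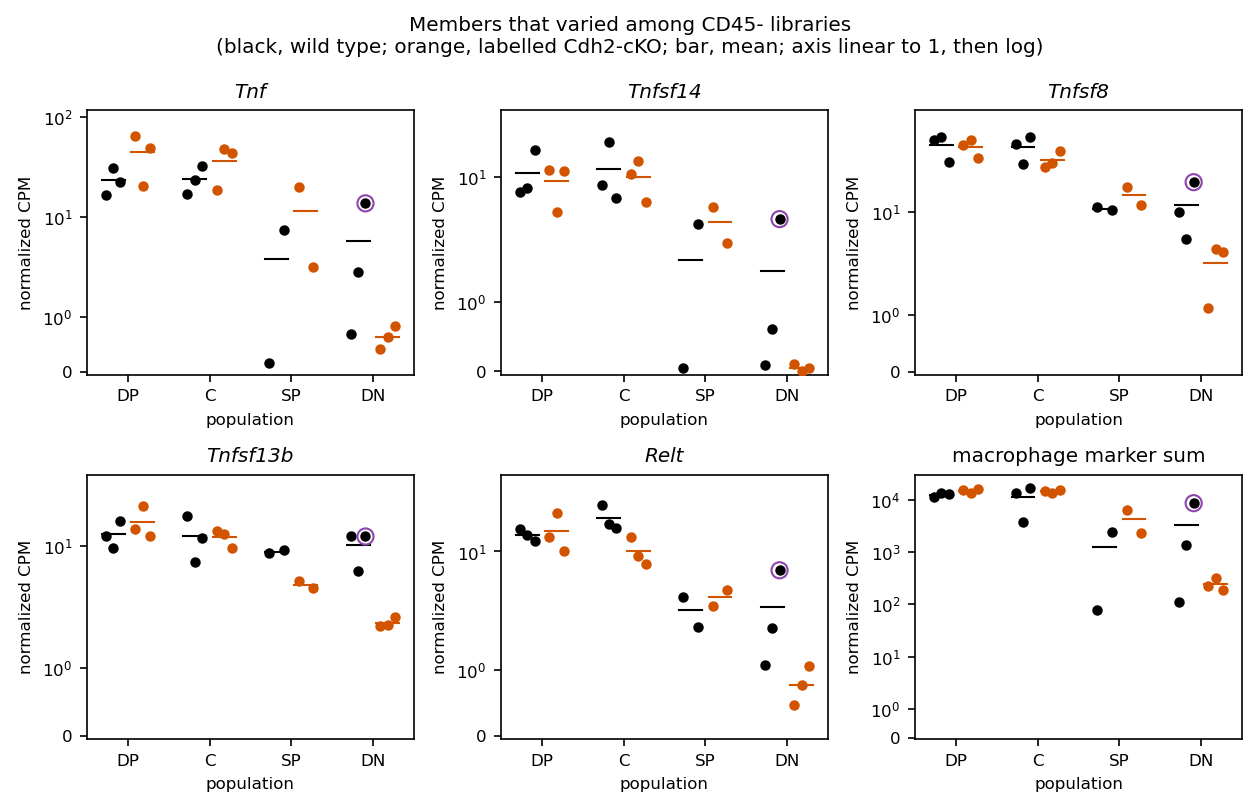
Normalized CPM (vertical axis, linear to 1 and logarithmic above) of 5 members and the sum of 7 macrophage markers in each library, by population as in the plot of members by population, with means as bars. The circled library, wild type double negative replicate 3, had the highest macrophage sum of the CD45- libraries, 8730 CPM.

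Each population was also set against the mean of the other 3. Of the members tested 8 were up in TdTOSX single positive cells (*Tnfrsf1a*, *Ltbr*, *Tnfrsf10b*, *Tnfrsf12a*, *Tnfrsf19*, *Eda2r*, *Eda* and *Tnfsf18*), against 23.9% of all genes tested up and 38.1% called. In double positive cells 16 were up, against 20.8% up and 43.2% called. In CD45 single positive cells 19 were up, against 22.2% up and 40.3% called. In double negative cells 6 were up, against 25.8% up and 48.4% called. In the wild type libraries alone the 4 counts were 3, 2, 7 and 3, against 15.9%, 0.722%, 2.7% and 10.1% of the genes tested there. The count in TdTOSX single positive cells was 5 without wild type replicate 1 of that population and 4 without replicate 2 of those labelled Cdh2-cKO, against 19.6% and 18.1%. These contrasts share their libraries with the comparison of CD45+ and CD45- cells and are given beside it.

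Between the libraries labelled Cdh2-cKO and the wild type no member was called over the 4 populations or within any of them (edgeR, smallest adjusted p = 0.279 over all populations). Of all genes tested, 0% were called over the 4 populations, and DESeq2 called 1 member lower, *Tnfsf13b*, against 0.419% of all genes. At an unadjusted p under 0.05 there were 6 members over all populations and 9 in double negative cells, against 11.5% and 9.6% of all genes tested. *Tnfsf13b* was at 12.1, 6.19 and 11.9 CPM in wild type double negative cells and at 2.21, 2.23 and 2.58 CPM in those labelled Cdh2-cKO. The ranges did not overlap, and the log2 fold change was -2.10 ± 0.34 (edgeR adjusted p = 0.131). DESeq2 called this difference (adjusted p = 8.26e-05), along with *Tnf*, *Tnfsf14*, *Tnfsf8*, *Tnfrsf13b* and *Relt* in the same cells, 6 members in all and each lower in the libraries labelled Cdh2-cKO, against 3.29% of all genes. By voom *Tnfsf13b* was not called (adjusted p = 0.465). edgeR called it without wild type CD45 single positive replicate 2 (adjusted p = 0.0415) and without wild type double negative replicate 1 or 2 (adjusted p = 0.0146 and 0.0198). Without replicate 1 edgeR also called *Tnfsf14*, *Tnfsf8*, *Tnfrsf13b* and *Relt*, which makes 5 members lower against 4.02% of the genes tested.

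*Tnfsf8* in double negative cells was at 9.98, 5.48 and 19.3 CPM in the wild type and at 1.16, 4.31 and 4.04 CPM in those labelled Cdh2-cKO, a log2 fold change of -1.86 ± 0.46 (edgeR adjusted p = 0.18). *Relt* was at 1.10, 2.25 and 6.94 CPM and at 0.473, 0.776 and 1.08 CPM, with a log2 fold change of -2.12 ± 0.53 (edgeR adjusted p = 0.18). Ranges in double negative cells did not overlap for 7 members that were lower and 1 that was higher in the libraries labelled Cdh2-cKO, against 5.35% and 3.87% of all genes tested. The macrophage sums of these libraries, by replicate, were 111, 1370 and 8730 CPM in the wild type. In those labelled Cdh2-cKO they were 227, 320 and 186 CPM. *Tnfsf13b* was highest in wild type replicate 1, which had the lowest sum. *Tnfsf8* and *Relt* were highest in wild type replicate 3, which had the highest sum. The part of macrophages in these values was not tested. In CD45 single positive cells *Ltb* differed by -3.53 ± 1.30 and *Cd27* by -5.22 ± 1.64 (edgeR adjusted p = 0.428 and 0.417), with the wild type mean resting on replicate 2. The difference of the CD45 effect between the genotypes was called for no member (edgeR, smallest adjusted p = 0.299, 4 members at an unadjusted p under 0.05 against 7.7% of all genes), nor was that of the TdTOSX effect in CD45+ cells (smallest adjusted p = 0.953) or in CD45- cells (0.175, 8 members at an unadjusted p under 0.05 against 10.1% of all genes).

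The remaining genes of the pathway were counted from lists. Of 9 further superfamily members 3 were higher and 4 lower in CD45+ cells, against 32.6% and 31.1% of all genes tested. The largest change was that of *Tnfrsf11b* (osteoprotegerin, the decoy receptor of RANKL). It was between 24.4 and 175 CPM in CD45- libraries and between 0.108 and 1.15 CPM in CD45+ libraries, a log2 fold change of -6.84. *Tnfrsf18* (GITR, the receptor of GITRL), *Tnfrsf4* (OX40, the receptor of OX40L) and *Tnfrsf11a* (RANK) were higher in CD45+ cells by 3.01, 2.95 and 2.73 on the log2 scale. *Tnfrsf18* and *Tnfrsf4* had their 3 highest levels in the 3 libraries with the highest T cell sums, with 84.4, 78.8 and 40 CPM of *Tnfrsf18* in wild type CD45 single positive replicate 2 and double positive replicates 3 and 2. Of 30 genes of signal transduction (TRAF adaptors, death domain adaptors, caspase-8, the NF-kappaB kinases and subunits and their inhibitors) 18 were higher and 1 lower in CD45+ cells, against the same 32.6% and 31.1%. *Rel*, the NF-kappaB subunit of lymphoid and myeloid cells, changed by 2.99, *Tnfaip3* (A20, an inhibitor of the pathway) by 1.70 and *Nfkbie* by 1.47, and *Traf4* by -2.52. None of either list was called between double positive and CD45 single positive cells or between the genotypes. Of all genes tested 0.00666% were called in the former and, over the 4 populations, 0% in the latter. *Tradd* was the 1 gene called between TdTOSX single positive and double negative cells, against 1.89% of all genes tested, with a log2 fold change of 1.14 (edgeR adjusted p = 0.0224).

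Neighbours on the chromosome did not always share a direction. Of the 37 members, 18 lay in 7 groups with less than 500000 bases between neighbours. *Cd27*, *Ltbr* and *Tnfrsf1a* spanned 129863 bases of chromosome 6 and had log2 fold changes of CD45+ over CD45- cells of 4.03, -0.29 and -0.14. *Tnfsf4*, *Tnfsf18* and *Fasl* on chromosome 1 had 1.64, -2.19 and 5.22 within 393087 bases. *Tnfrsf1b* and *Tnfrsf8* on chromosome 4 were both higher in CD45+ cells, by 1.67 and 2.10.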

How the data were processed

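The authors used STAR 2.0.4b on GRCm38 for alignment, and featureCounts (version 1.45 per the labels) for reads that aligned once and fell in 1 Ensembl gene. The deposited counts are raw whole numbers per gene and library. The deposited CPM are counts scaled by each library's total and the deposited RPKM are CPM per kilobase, both by the authors, and they were used only to check the counts.

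The 355 rRNA genes were left out, and the 15018 genes above 1 CPM in 2 or more libraries were tested in R 4.3.3 with edgeR 4.0.16 (TMM factors, quasi-likelihood test, 8 groups of 1 population and genotype, Benjamini-Hochberg adjustment, threshold 0.05). Normalized CPM are counts over TMM-scaled library sizes. A count of 3 was the floor. The fits were tested on simulated data. Alternatives were limma 3.58.1 (voomWithQualityWeights), DESeq2 1.42.0, RLE factors, no filter, a replicate block, single genotypes, a fold threshold and each library left out. The fit of 10 wild type libraries was added after seeing the data.

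Members and lists were chosen with earlier results of these data known. Values in detail were given for up to 5 members with the largest fold change per role (ligands, death domain receptors and other receptors) among those called, and for their partners; *Tnf*, *Tnfsf8*, *Tnfsf9*, *Tnfsf14*, *Tnfsf18*, *Tnfsf4*, *Tnfrsf8*, *Relt* and *Ngfr* were named beyond this rule, after their values were seen. No 2 libraries of a group agreed within counting noise (chi-square per degree of freedom 51.3 to 446), and floors cover counting error only.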

Additional observations from a re-analysis of the deposited data

Results flagged for a closer look

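Within a population, over both genotypes on a log2 scale with 0.5 CPM added, 17 of 112 gene and population combinations had a highest or lowest library whose gap exceeded Dixon's 95% value, where chance alone gives about 1 in 20. In CD45 single positive cells 9 of them were wild type replicate 2. It was highest for *Lta* (26.6 CPM, others at most 0.769), *Fasl* (49.8, others at most 2.14), *Cd40lg* (20.7, at most 0.782), *Cd27* (108, at most 2.09) and *Tnfrsf25* (11, at most 1.21). It was lowest for *Tnfsf12* (4.07, others at least 15), *Tnfsf13* (1.26, at least 4.56), *Tnfrsf21* (12.9, at least 36.6) and *Ltbr* (17.6, at least 40.6).

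Wild type double negative replicate 3 was highest for *Tnfsf14* (4.63 CPM, others at most 0.614) and *Tnfsf13* (2.81, at most 0.461), and lowest for *Tnfrsf12a* (223, others at least 451) and *Eda2r* (10.7, at least 23.3). The others were *Tnfsf18* at 2.48 CPM in wild type CD45 single positive replicate 3, *Fas* at 16.7 in double positive replicate 2 labelled Cdh2-cKO, *Tnfrsf10b* at 4.06 in wild type double positive replicate 3, and *Eda2r* at 0 in wild type CD45 single positive replicate 1.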

How the results depend on the processing

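Between CD45+ and CD45- cells 17 of 32 members stayed on the same side of the threshold and in the same direction under the other tests, scalings, filter, block, single genotypes and left-out libraries that gave a value. The fold threshold and the 10 wild type libraries without CD45 single positive replicate 2 are not in this count, and in those 10 libraries edgeR lost 11 and voom 9 of 29 calls. In the main fit 23 members were called higher in CD45+ cells. With an absolute log2 fold change of at least 2 required there were 13, and in the wild type libraries alone 14. Leaving out 1 library gave 22 to 23 higher and 6 to 7 lower. No share of all genes is given at the fold threshold, so counts under it describe the members only. Between double positive and CD45 single positive cells 0 were called under every alternative. Between TdTOSX single positive and double negative cells voom and DESeq2 gave 3 each, the libraries labelled Cdh2-cKO 7, the fit without both libraries that stood apart 8, and leaving out 1 library 0 to 6. Between the genotypes over the 4 populations together DESeq2 gave 1, and leaving out 1 library gave 0. In double negative cells DESeq2 gave 6, and leaving out 1 library 0 to 5.

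With each population set against the remaining 3, the fold threshold left 2 members up in TdTOSX single positive, 8 in double positive and 9 in CD45 single positive cells, again without a share of all genes. The wild type libraries gave 3, 2, 7 and, in double negative cells, 3. Leaving out 1 library gave 4 to 8, 12 to 20, 14 to 20 and 5 to 6.

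Directions that reversed were all of uncalled values. For *Ltb* between double positive and CD45 single positive cells they were 2.15 with voom, 0.86 with the replicate block, 1.67 without both libraries that stood apart, 0.19 in the libraries labelled Cdh2-cKO, 3.17 and 3.26 in 10 wild type libraries with edgeR and voom, and up to 1.67 when 1 library was left out (lowest -0.56). For *Cd27* the same settings gave 1.71, 0.26, 1.99, 0.29, 3.72 and 3.59, and -1.31 to 2.00. *Tnfrsf1a* was 0.02 between the sorts in the libraries labelled Cdh2-cKO, and *Ngfr* lay between -1.23 and 0.77 over the fits without 1 library. Between TdTOSX single positive and double negative cells the wild type libraries gave -0.59 for *Tnf*, -0.12 for *Tnfsf8*, -1.60 for *Tnfrsf13b* and -0.10 for *Relt*, and without wild type TdTOSX single positive replicate 2 *Tnf* was -0.50 and *Tnfrsf13b* -1.01, while their highest values with 1 library left out were 2.65 and 2.39. Leaving out 1 TdTOSX single positive library leaves a lone sample of that group, which is assumed to vary like the others. The causes were not tested. DESeq2 gave no p for *Lta*. Whether the replicate numbers pair the samples was not settled. In the wild type same-numbered libraries correlated with r from -0.296 to 0.593. There 4 of 15 such pairs were over 0.1, against 5 of 30 pairs with unlike numbers. In the libraries labelled Cdh2-cKO r ran from -0.132 to 0.174, with 6 of 15 pairs over 0.1 against 1 of 30. The main fit used no pairing. The replicate block gave 23 members higher in CD45+ cells and 0 between the other populations and genotypes. Levels below about 0.2 CPM were not resolved at this depth.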
